A study of Mus musculus with 2 samples.

Results

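The genes described here encode the proteins of the mitochondrial ribosome and of the machinery that imports proteins into mitochondria. They were taken by symbol from the non-normalized array table: every gene whose symbol starts with Mrpl, Mrps, Timm or Tomm followed by a digit. This gave 92 of the 30712 genes named in the table, read by 156 of 45281 probes, with 45 Mrpl, 28 Mrps, 12 Timm and 7 Tomm genes.

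Mitochondria build a small set of respiratory chain proteins on ribosomes of their own, whose RNA comes from mitochondrial DNA and whose proteins are encoded in the nucleus. The Mrpl genes encode proteins of the large subunit and the Mrps genes, with a few exceptions, proteins of the small subunit. These proteins, like nearly all others of the organelle, are made in the cytosol and brought in through the TOM complex of the outer membrane (Tomm genes) and the TIM complexes and chaperones behind it (Timm genes).

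Both groups were cultures of CT26, a mouse colon carcinoma line. CDK8 knockdown cells were transduced with pLKO.1-shCDK8, a lentiviral vector whose hairpin RNA targets CDK8, the kinase of the Mediator complex. Control cells were transduced with the empty pLKO.1 vector. Total RNA from each was measured on 1 Illumina mouse bead array, so no value has a replicate check, no p-value was computed, and every comparison is of these 2 arrays. Whether each culture was 1 clone or a pool is not given in the sources used here.

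The raw intensities summed to 14560000 on the knockdown array and 14010000 on the control array, and 47.0% of probes lay above background in the knockdown and 45.9% in the control. Cdk8 had a normalized log2 intensity of 7.89 in knockdown cells, against 9.88 in control cells, a difference of -1.99 at the 1 of its 3 probes that was detected. This is the direction of the label. Of 8 epithelial markers, 2 were detected, Cdh1 and Cldn7, both close to background, while Krt8, Krt18, Krt19 and Epcam were not detected on either array. Fibroblast genes were detected more often, 7 of 10 on both arrays, with a median difference of 0.46 that ranged from 0.15 to 0.75 with the processing. Col1a1 stood at 1.41, and Pdgfrb and Col3a1 at -1.003 and -0.60. Raw intensity above background, summed over the detected probes of the fibroblast list, was 5198 in the knockdown and 2987 in the control. Leukocyte and endothelial markers were mostly undetected, with 2 of 9 and 1 of 6 detected; the leukocyte gene Ptprc and the endothelial genes Pecam1 and Cdh5 were among those at background. The same sums were 28.4 in the knockdown and 27.9 in the control for the epithelial list, and 129.3 in the knockdown and 159.1 in the control for the leukocyte list. In RNA from a whole culture, fewer cells of a kind and less RNA per cell cannot be told apart. The part of such markers in the differences below was not tested.

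Of the 92 mitochondrial ribosome and import genes, 85 were detected on both arrays, meaning that at least 1 probe stood above the upper 1% of the estimated background on each. Mrps14 and Timm22 were detected in the knockdown only, and Mrpl19, Mrpl21, Mrpl32, Timm23 and Timm8a2 on neither array. Each gene's value is the mean log2 intensity of its detected probes, and each difference is the knockdown value minus the control value. Probes of the same gene differed in this quantity with a pooled SD of 0.22, or 1.16-fold, over 4545 genes. This probe SD serves below as a yardstick of the spread between probes within the arrays, and says nothing of the spread between cultures. It was pooled over all levels of brightness. The same limit was applied to genes read by 1 probe and to means of several, so it is not the error of each gene value.

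As a group these genes were slightly lower in the knockdown. Their median difference was -0.10, a 1.07-fold lower level, against -0.01 over all 13376 genes detected on both arrays. Differences lay below 0 for 61 of the 85 genes, or 71.8%, where 50.8% of all genes did. The other 24 lay above 0 (48.8% of all genes did). Beyond the probe SD, 23 were lower (27.1%, against 17.3% of all genes) and 6 were higher (7.06%, against 16.5% of all genes). The remaining 56 differed by less. These genes were chosen with such differences known, so the counts are a description. Mrps35 alone reached 1.5-fold, on the lower side (2.21% of all genes did), and no gene reached it on the higher side (2.06% of all genes did). With all 92 genes and no filter on dim probes the median was -0.09. Counted by probe, 99 of 135 probes detected on both arrays were below 0, or 73.3%, with a median of -0.10. No such share over all probes is given here. Some other mitochondrial lists described below had similar shares of genes below 0. These were 71.8% of respiratory chain subunits, 73.7% of import partners with other symbols, 73.3% of genes of mitochondrial DNA expression and 75% of regulators. The share was 64.3% for mitochondrial tRNA synthetases and 50% for translation factors. A share of this size was therefore not particular to the ribosome and import genes.

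**Figure D1:**
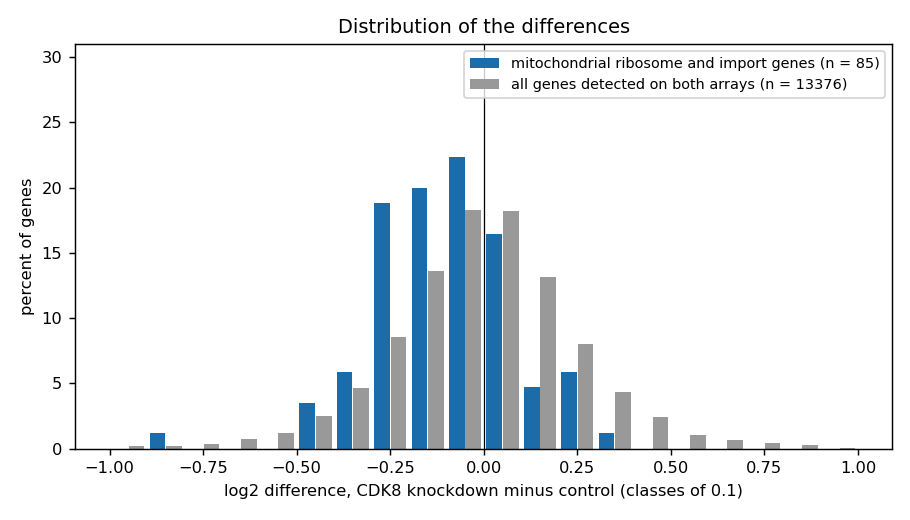
Percent of genes (vertical axis) in classes of 0.1 of the log2 difference, CDK8 knockdown minus control (horizontal axis), for the 85 mitochondrial ribosome and import genes (blue) and all 13376 genes detected on both arrays (grey). The blue bars exceed the grey ones in each class between -0.5 and 0, and fall below them in each class above 0.

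The lower levels appeared in 4 of 5 classes of brightness. Between a mean log2 level of 9 and 10 the 25 ribosome and import genes had a median difference of -0.10, and the 1174 genes of the array in that range one of -0.01. Between 10 and 11 the medians were -0.11 over 23 of these genes and -0.01 over 697 genes in all. Between 7 and 9 they were -0.18 over 19 genes and -0.01 over 3505. Among the dimmest genes, under 7, the 9 ribosome and import genes had a median of 0.01 and 4 lay below 0, and from 11 upwards the 9 had one of -0.07, against -0.02 over 699 genes. The shares past the probe SD, here and in later paragraphs, were not matched for brightness. Under 7 lay 7301 of all 13376 genes, but only 9 of the 85 ribosome and import genes.

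Both ribosomal subunits had most of their differences below 0, where 50.8% of all genes did. Of 42 Mrpl genes detected on both arrays, 31 were below 0, and the median was -0.13. Beyond the probe SD, 13 were lower (31%, against 17.3% of all genes) and 3 higher (7.14%, against 16.5% of all genes). Of 27 Mrps genes, 20 were below 0, and the median was -0.09. Beyond the probe SD, 5 were lower, or 18.5%, which is near the share of all genes, and 2 were higher, or 7.41%. The difference between the subunits was not tested.

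Mrps35, a small-subunit protein with no bacterial counterpart, had the largest difference of all these genes. Its log2 intensity was 8.86 in knockdown cells, against 9.75 in control cells, which is 1.85-fold lower. It was read by 1 probe with raw intensities of 555.1 in the knockdown and 908.3 in the control, far above background, and its difference stayed between -0.90 and -0.79 under the alternative processings. The nearest gene on the other side of 1.5-fold was Mrpl20, at 1.40-fold.

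Mrpl20, a large-subunit protein shared with bacteria, had 9.20 in knockdown cells against 9.69 in control cells, a difference of -0.49. Mrpl1, the protein of the mobile L1 stalk next to the tRNA exit site, had 7.18 in the knockdown and 7.60 in the control, and both of its probes differed by -0.43 and -0.41. Mrpl38 stood at 9.07 in the knockdown and 9.51 in the control, but its probes disagreed in size. The dimmer Mrpl38 probe, which carries no gene number in the deposited table, differed by -0.83, and the bright one by only -0.05. Its difference of -0.44 therefore rests on 1 probe, and it is -0.05 when either the brightest probe or only probes with a gene number are used.

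Mrpl15 gave the most repeated measurement, with 6 probes detected on both arrays. Its mean level was 7.47 in knockdown cells against 7.77 in control cells, and all 6 probes were lower, with differences from -0.48 to -0.14. Mrps21 had 10.41 in the knockdown and 10.73 in the control. Mrps30, which despite its symbol sits in the large subunit, had 10.09 in the knockdown and 10.38 in the control. Mrpl34 had 10.11 in the knockdown and 10.40 in the control, and Mrpl2, which lies close to the catalytic centre, had 10.19 in the knockdown and 10.47 in the control. Mrpl11, at the base of the stalk that recruits translation factors, had 8.97 in the knockdown and 9.23 in the control. These last 6 genes, Mrpl15 to Mrpl11, were at most 1.25-fold lower.

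The other lower genes lay close to the probe SD. They were Mrpl53, Mrps11, Mrpl22, Mrpl44, Mrps15, Mrpl13, Mrpl55 and Mrpl24, with differences from -0.26 (Mrpl53) to -0.22 (Mrpl24, just past the yardstick). Mrps15 passed it through a dim probe at -0.46, while its brighter probe differed by -0.00. Just inside the yardstick were Mrpl47 and Mrpl46, both at -0.21.

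Of the 69 Mrpl and Mrps genes detected on both arrays, 18 lay above 0 (48.8% of all genes did). Beyond the probe SD, 5 were higher (7.25%, against 16.5% of all genes). Mrps6, a small-subunit protein that pairs with the S18 protein in bacteria, was the highest, with 11.03 in knockdown cells against 10.70 in control cells, or 1.26-fold higher. Its single probe was bright, at raw intensities of 2207.9 in the knockdown and 1706.6 in the control. Mrpl18 had 7.59 in the knockdown and 7.32 in the control, with 0.12 at its bright probe and 0.41 at a dim one. Mrpl4, a protein of the large subunit's exit tunnel, had 10.01 in the knockdown and 9.76 in the control. Mrps18a, another protein of the large subunit despite its symbol, had 10.70 in knockdown cells and 10.48 in control cells. Mrpl39 had 4.81 in the knockdown and 4.56 in the control at raw intensities of 100.2 and 96.1 on those arrays, barely above background. Of these 5 genes, Mrps6 and Mrpl4 stayed past the probe SD under every alternative in which they were measured.

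Mrpl52, Mrps16, Mrpl14, Mrps10 and Mrpl54 completed the 10 highest ribosome genes, with differences from 0.16 (Mrpl52 and Mrps16) to 0.08 (Mrps10 and Mrpl54), all within the probe SD. Mrps14 was above background in the knockdown alone, at raw intensities of 96.1 in the knockdown, next to the detection limit of 93.7, and 87.8 in the control. It was at least 1.08-fold higher with the offset used here, and its difference was 0 in the authors' processed values.

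**Figure D2:**
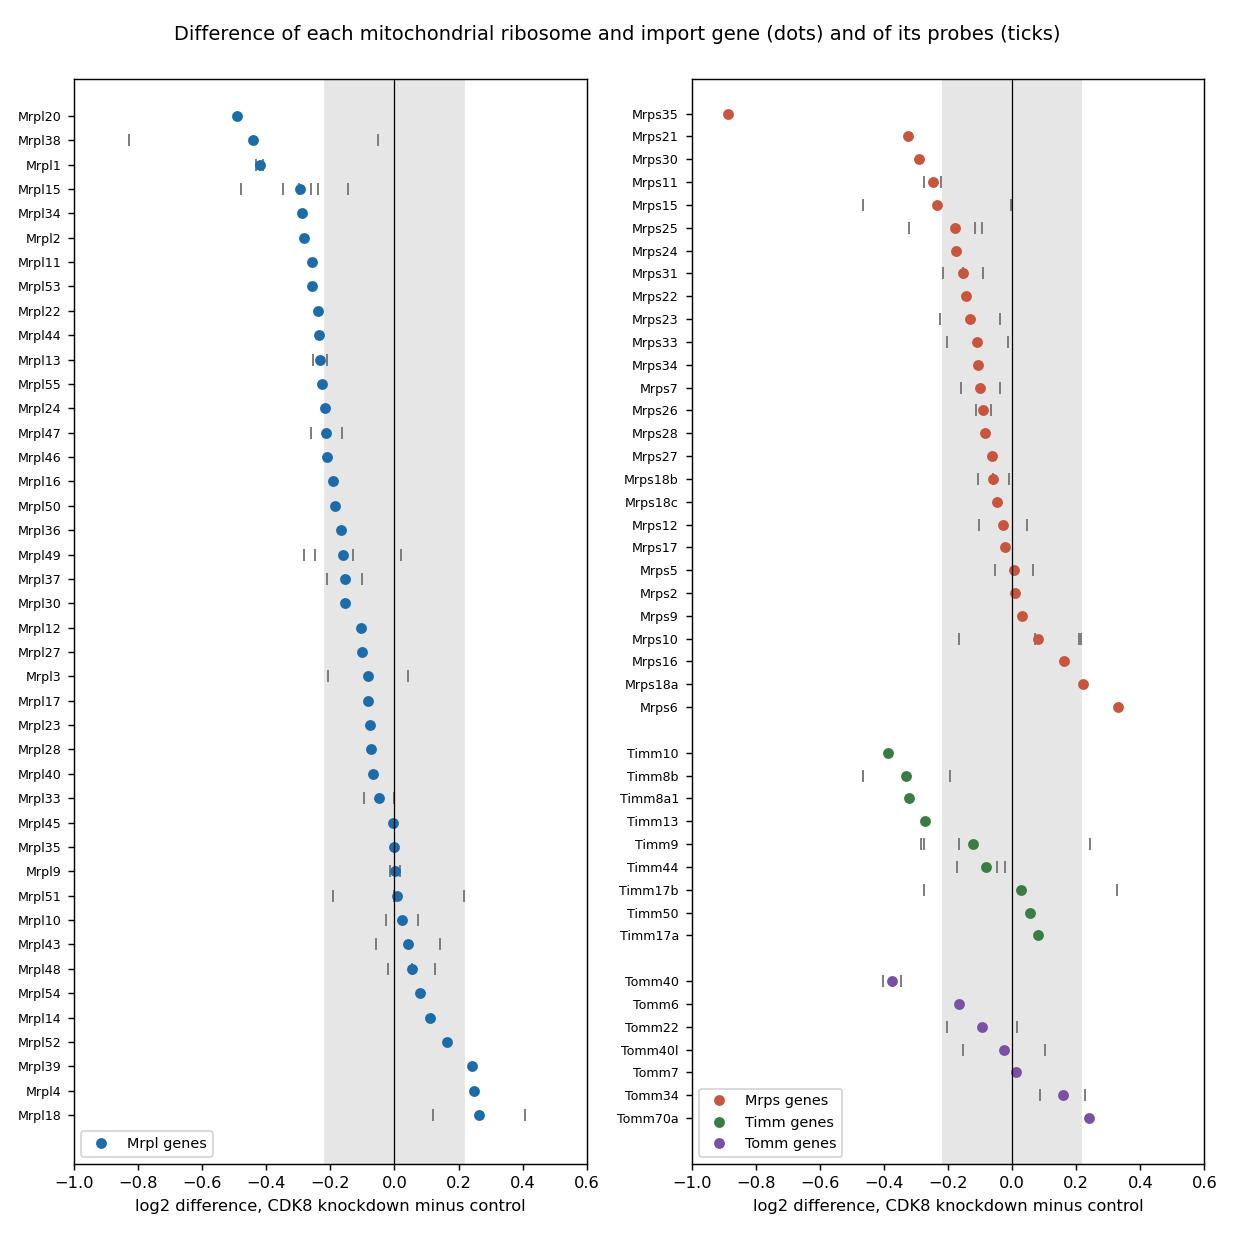
Log2 difference, CDK8 knockdown minus control (horizontal axis), of the 85 genes detected on both arrays, sorted within each family (Mrpl left; Mrps, Timm and Tomm right). Dots are gene values, ticks the detected probes of genes with more than 1, and the grey band spans the probe SD (0.22) on each side of 0; 23 dots lie left of the band and 6 right of it, with Mrps35 farthest left.

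Ribosomal proteins inherited from bacteria and those that mitochondria added later were grouped by their counterparts in bacterial ribosomes. Of all genes, 50.8% were below 0. Of 26 detected large-subunit proteins with a bacterial counterpart, 21 were below 0 (median -0.13), and of 18 particular to mitochondria, 11 were (median -0.11). In the small subunit the proteins particular to mitochondria were all on the lower side, 10 of 10 with a median of -0.12. Only Mrps35 among them passed the probe SD, or 10%, against 17.3% of all genes lower beyond it. Mrps25, Mrps31 and Mrps22 differed by -0.18, -0.15 and -0.14. Of 15 small-subunit proteins with a bacterial counterpart, 9 were below 0, and the median was -0.03.

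Ribosomal proteins that carry other symbols lay in the same range. Of 6 such genes, 5 were below 0 (50.8% of all genes were), with a median of -0.11. Aurkaip1 was the 1 lower beyond the probe SD (17.3% of all genes were). Aurkaip1 had 11.14 in knockdown cells against 11.40 in control cells. Gadd45gip1 differed by -0.17, Ptcd3 by -0.13 and Chchd1 by -0.09, while Dap3 was at -0.01. Mrpl58, the rescue factor built into the large subunit and listed in the deposited table under an older symbol, differed by 0.09.

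Among the import genes the small TIM chaperones stood lowest. These proteins form ring-shaped complexes between the membranes and carry hydrophobic precursors from the outer to the inner membrane. All 5 gene values detected on both arrays were below 0 (50.8% of all genes were), with a median of -0.32. Of these, 4 were lower beyond the probe SD (17.3% of all genes were). The fifth, Timm9, had probes of both signs. The median stayed between -0.34 and -0.27 under all alternatives.

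Timm10, the partner of Timm9 in the ring that escorts metabolite carriers, had 8.01 in knockdown cells against 8.40 in control cells, or 1.31-fold lower. Timm8b had 10.63 in the knockdown and 10.96 in the control, and its probes differed by -0.46 and -0.20. Timm8a1, whose human counterpart is mutated in a deafness-dystonia syndrome, had 10.45 in the knockdown and 10.77 in the control. Timm13, the partner of Timm8a1, had 4.96 in the knockdown and 5.23 in the control. It was read close to background, at raw intensities of 103.3 in the knockdown and 109.6 in the control, and its difference was -0.09 without background correction. Timm9 had 7.35 in knockdown cells and 7.47 in control cells. Its 4 detected probes, 1 of them above background in the control only, disagreed in sign, from -0.28 to 0.24, with the brightest at -0.17.

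The annotated start regions of these 5 genes are shown because 4 of them are among the lowest of the genes described. Each is given from 170 bases before to 30 bases after the transcription start in RefSeq on GRCm38.p6, 5′ to 3′ on the gene's strand. They lie at chr2:84826851-84827050 (+ strand), chr9:50603731-50603930 (+), chrX:134541641-134541840 (- strand), chr10:80900940-80901139 (-) and chr12:71136646-71136845 (-). Capitals mark matches on either strand to CCGGAAG, a core recognised by ETS factors such as GABPA, to an NRF1 motif (GCGC, any base, then TGCGC), to the YY1 motif AAGATGGC, to CCAAT, and to the E-box CACGTG.
Timm10: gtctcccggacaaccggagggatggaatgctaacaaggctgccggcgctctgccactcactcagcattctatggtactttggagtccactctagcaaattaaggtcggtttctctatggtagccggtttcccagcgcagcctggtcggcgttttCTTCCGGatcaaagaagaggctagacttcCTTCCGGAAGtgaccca
Timm8b: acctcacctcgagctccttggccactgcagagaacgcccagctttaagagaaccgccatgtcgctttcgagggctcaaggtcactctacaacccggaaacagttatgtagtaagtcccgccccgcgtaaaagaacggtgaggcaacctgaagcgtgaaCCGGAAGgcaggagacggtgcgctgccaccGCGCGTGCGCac
Timm8a1: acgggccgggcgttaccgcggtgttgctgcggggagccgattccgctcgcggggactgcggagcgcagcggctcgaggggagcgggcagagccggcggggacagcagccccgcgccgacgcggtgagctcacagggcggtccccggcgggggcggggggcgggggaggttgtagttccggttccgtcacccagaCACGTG
Timm13: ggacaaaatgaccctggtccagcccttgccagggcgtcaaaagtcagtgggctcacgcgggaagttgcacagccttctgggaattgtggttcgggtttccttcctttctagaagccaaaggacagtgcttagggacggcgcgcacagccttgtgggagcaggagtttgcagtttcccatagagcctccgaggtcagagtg
Timm9: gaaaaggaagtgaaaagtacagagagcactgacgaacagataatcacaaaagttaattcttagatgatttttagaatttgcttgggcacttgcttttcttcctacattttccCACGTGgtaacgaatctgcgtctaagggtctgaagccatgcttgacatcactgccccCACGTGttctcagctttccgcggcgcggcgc
Timm10 holds the ETS core 3 times, with 2 of the matches overlapping on opposite strands. Timm8b holds an ETS core and an NRF1 motif, Timm8a1 an E-box and Timm9 a pair of E-boxes. No match to these letters was found in the Timm13 window.

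The TIM23 channel and motor genes lay near 0. Timm17a had 11.18 in knockdown cells against 11.10 in control cells, and its paralog Timm17b had 5.42 in the knockdown and 5.39 in the control. Both encode the channel subunit that works with Timm23. The Timm17b value is the mean of dim probes at -0.28 and 0.33, so its direction is unsettled. Timm50, the receptor of the complex, had 9.98 in the knockdown and 9.92 in the control. Timm44, which ties the import motor to the channel, had 9.13 in the knockdown and 9.21 in the control. All 4 lay within the probe SD, with a median of 0.04. Timm22, the channel for carrier proteins, was above background in the knockdown alone, at raw intensities of 100.2 in the knockdown and 93.5 in the control. Against the detection limit it was at least 1.26-fold higher with the offset of 16 used here. Its difference was 0.10 without background correction and 0 in the authors' processed values.

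Of the outer membrane genes, only Tomm40 was lower beyond the probe SD. Tomm40, the pore itself, had 6.83 in knockdown cells against 7.20 in control cells, 1.30-fold lower, and its probes differed by -0.40 and -0.35. Its paralog Tomm40l had 9.37 in the knockdown and 9.40 in the control, with probes on both sides of 0. The small pore subunits Tomm6 and Tomm7 had 8.76 and 10.11 in the knockdown, against 8.92 and 10.10 in the control. The central receptor gene Tomm22 had 5.69 in the knockdown and 5.78 in the control, again with probes of opposite sign. Tomm70a, the receptor for carrier precursors, had 5.96 in knockdown cells and 5.72 in control cells, the only outer membrane gene higher beyond the probe SD. Its 1 probe was dim, at raw intensities of 135.6 in the knockdown and 124.5 in the control. Its difference was 0.15 with an offset of 50 and 0.11 without background correction, both smaller than the probe SD of 0.22. Tomm34, a cytosolic co-chaperone, had 8.60 in the knockdown and 8.45 in the control. The 7 Tomm genes had a median of -0.02, whose sign changed with the processing.

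**Figure D3:**
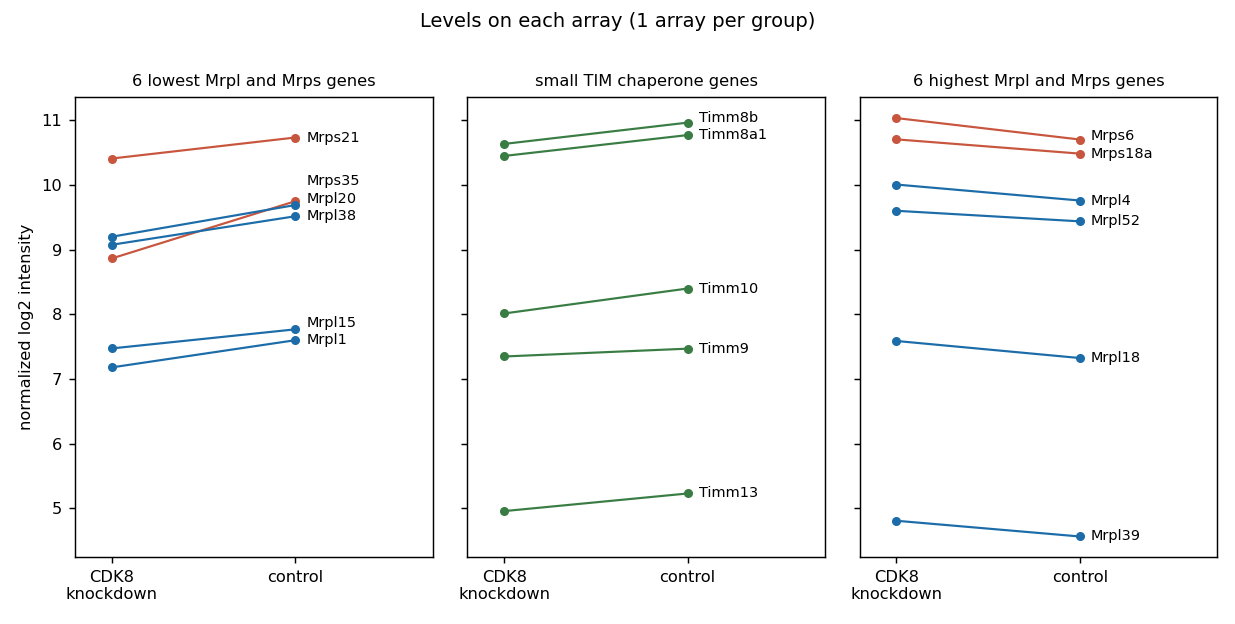
Normalized log2 intensity (vertical axis) on the CDK8 knockdown array (left points) and the control array (right points), 1 array per group, for the 6 lowest Mrpl and Mrps genes, the 5 small TIM chaperone genes and the 6 highest Mrpl and Mrps genes; lines join the values of a gene. Mrps35 has the steepest line, with 8.86 in the knockdown and 9.75 in the control, and 4 of the 5 small TIM genes are lower in the knockdown beyond the probe SD, all but Timm9.

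Measurements by several probes allowed a check within genes. Of 35 genes with at least 2 probes detected on both arrays, 21 had all probes on the same side of 0. In 8 genes the probes differed in sign and beyond the probe SD: Mrpl3, Mrpl49, Mrpl51, Mrps10, Timm17b, Timm9, Tomm22 and Tomm40l. Their gene values, from -0.16 (Mrpl49) to 0.08 (Mrps10), have no settled direction. The other 50 genes rest on 1 probe detected on both arrays. The counts of 21 and 8 have no share over all genes with several probes beside them. Whether such agreement is usual on these arrays was not tested.

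Position on the genome was compared because genes of chromosome 14 were higher in the knockdown, with a median of 0.22 over 327 genes. Mrpl52 and Mrps16 lie there. Mrpl52 had 9.60 in knockdown cells against 9.44 in control cells, and Mrps16 had 10.07 in the knockdown and 9.91 in the control, so both differed by 0.16, below the median of their chromosome. Timm23 and Timm8a2, also on chromosome 14, were not detected. Without them the median of the remaining 83 genes was -0.10. Of the 4 genes on chromosome 16, Mrps6, Mrpl39 and Tomm70a were among the 6 higher genes, while Mrpl40 differed by -0.07. The median of all 313 genes of chromosome 16 was 0.01. Chromosome 11 held the most, 10 genes with 9 of them below 0, and a median of -0.12 against -0.01 for the chromosome.

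Many of these genes start head to head with a neighbour. Of 80 with an annotated start in the RefSeq table, 26, or 32.5%, had a protein-coding gene starting on the opposite strand within 1000 bases upstream, at a median distance of 130 bases, against 8.48% of all 17492 protein-coding genes there. Among genes detected on both arrays the shares were 31.1% of 74 and 14% of 7779. Both genes were detected on both arrays in 18 pairs, leaving out the pair within the set, and the partners had a median of -0.01, with 9 of 18 below 0. Across these 18 pairs the differences had a Pearson r of 0.20 and a Spearman rho of 0.18, a description over pairs that share both arrays. Timm8b and its partner Sdhd, a subunit of succinate dehydrogenase, were both lower, at -0.33 and -0.14. Mrpl2 was at -0.28 while its partner Klc4 was at 0.23.

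Mrpl46 and Mrps11 are the 1 pair with both genes in the set. Mrpl46 had 9.82 in knockdown cells against 10.03 in control cells, and Mrps11, which starts 42 bases upstream on the opposite strand, had 9.13 in the knockdown and 9.38 in the control. The stretch between them is shown on the Mrpl46 strand (chr7:78783060-78783259, - strand, GRCm38.p6), from 170 bases before to 30 after its start. None of the 5 motifs was found in it.
Mrpl46: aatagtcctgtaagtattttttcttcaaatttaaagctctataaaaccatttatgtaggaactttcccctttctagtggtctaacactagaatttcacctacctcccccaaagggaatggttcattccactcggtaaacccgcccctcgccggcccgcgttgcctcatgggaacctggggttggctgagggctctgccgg

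Start regions of some of the lowest and highest ribosome genes are given for comparison, in the same window and with the same motifs in capitals. Those of Mrps35, the lowest, and of Mrpl38 are not shown. Mrpl20 (chr4:155802708-155802907, + strand) and Mrpl1 (chr5:96209945-96210144, +) were lower. Mrps6 (chr16:92058166-92058365, +) and Mrpl18 (chr17:12916062-12916261, - strand) were higher.
Mrpl20: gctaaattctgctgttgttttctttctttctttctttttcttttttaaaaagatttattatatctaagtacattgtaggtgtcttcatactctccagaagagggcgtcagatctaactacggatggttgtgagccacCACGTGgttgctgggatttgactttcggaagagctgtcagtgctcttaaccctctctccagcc
Mrpl1: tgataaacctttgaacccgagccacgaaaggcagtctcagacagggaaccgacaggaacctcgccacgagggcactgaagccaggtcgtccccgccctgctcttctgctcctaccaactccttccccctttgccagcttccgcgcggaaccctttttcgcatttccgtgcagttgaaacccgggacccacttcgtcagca
Mrps6: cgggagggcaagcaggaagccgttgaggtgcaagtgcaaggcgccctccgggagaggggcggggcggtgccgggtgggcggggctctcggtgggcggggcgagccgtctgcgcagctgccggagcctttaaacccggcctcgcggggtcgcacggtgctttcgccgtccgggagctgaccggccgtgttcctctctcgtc
Mrpl18: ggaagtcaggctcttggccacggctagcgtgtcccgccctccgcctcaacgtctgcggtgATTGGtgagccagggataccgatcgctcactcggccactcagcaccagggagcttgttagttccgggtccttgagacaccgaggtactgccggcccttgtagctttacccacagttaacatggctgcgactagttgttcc
Mrpl20 holds an E-box and Mrpl18 a CCAAT box on the reverse strand, and the other windows hold none of the 5 motifs.

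Over windows from 250 bases before to 50 after each start, the ETS core CCGGAAG stood in 37.5% of the 80 genes, against 12.9% of all 17492 protein-coding genes. Among genes detected on both arrays it stood in 36.5% of 74 and in 20.9% of 7779. The YY1 motif stood in 15.0% of the 80 genes, against 3.57% of all, the NRF1 motif in 15.0% against 7.17%, the E-box in 8 of the 80 genes, against 8.91% of all, and CCAAT in 37.5% against 42.3%. For the ETS core the median difference was -0.06 over 27 detected genes with it and -0.15 over 47 without it. For NRF1 the medians were -0.09 over 11 genes with it and -0.10 over 63 without it, and for YY1 -0.10 over 11 and -0.10 over 63. With an E-box the median was -0.22 over 8 genes, against -0.09 over 66 without. Among genes detected on both arrays the shares came closer together for some motifs, with NRF1 at 14.9% of these 74 genes and 11.9% of all 7779, the E-box at 10.8% and 11.6%, CCAAT at 39.2% and 43.4%, and YY1 at 14.9% and 5.40%. These shares and medians describe letters in annotated windows and not binding.

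Lists of other mitochondrial genes were described in the same way. The counts past the probe SD stand beside 17.3% lower and 16.5% higher over all genes. Those shares were not matched for the brightness of each list, so a list above or below them may differ in brightness alone. Genes of mitochondrial DNA replication, transcription and RNA processing had a median of -0.21, or -0.13 without background correction. Beyond the probe SD, 7 of 15 were lower (46.7%) and 2 higher (13.3%). Supv3l1, a helicase of RNA decay, had 7.54 in knockdown cells against 7.89 in control cells. Polg2 and Polg, the subunits of the mitochondrial DNA polymerase, differed by -0.34 and -0.30, and Tfb2m, a transcription factor of the organelle, by 0.31.

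Translation factors and genes of ribosomal RNA handling had a median of -0.02, with 7 of 28 lower (25%) and none higher. Rbfa, a small-subunit assembly factor, had 8.62 in the knockdown and 9.10 in the control. Fastkd2, near background, differed by -0.35, the release factor gene Mtrf1l by -0.34 and Mterf4 by -0.33. The mitochondrial tRNA synthetases had a median of -0.06, with 2 of 14 lower (14.3%) and 1 higher (7.14%), both below the shares of all genes. Nars2, near background, was at -0.51, Lars2 at -0.32, Iars2 at 0.32 and Ears2 at -0.19.

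Import partners with other symbols had a median of -0.05, with 4 of 19 lower (21.1%) and 2 higher (10.5%) beyond the probe SD. Romo1, a small inner membrane protein related to a yeast subunit of the TIM23 complex, differed by -0.61 over its detected probes and was the 1 gene of this list past 1.5-fold. The chaperonin gene Hspd1 differed by -0.26. Pmpca, a subunit of the peptidase that removes import signals, was at 0.39, with levels of 5.59 in the knockdown and 5.20 in the control. Oxa1l, which inserts newly made proteins into the inner membrane and lies on chromosome 14, was at 0.33.

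Regulators of nuclear genes for mitochondria were mostly dim and had a median of -0.12, with 2 of 8 lower (25%) and none higher. Nrf1 had 6.57 in knockdown cells against 6.95 in control cells, and Ppargc1b had 5.85 in the knockdown and 6.19 in the control. Gabpb1 and Gabpa differed by -0.19 and -0.15. With only bright probes the median was -0.00, which is the value of Pprc1 alone. Nrf1, Ppargc1b, Gabpb1 and Gabpa had gene values under 7 on both arrays, so that median says little of them.

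Respiratory chain subunits were taken by symbol, a pattern that also took in assembly factors such as Cox10 and Cox17 and the entry Ndufs5-ps. Of these 78 genes 56 were below 0, or 71.8%, much like the share of the ribosome and import genes, with a median of -0.06. Beyond the probe SD, 12 were lower, or 15.4%, below the 17.3% of all genes, and 5 were higher, or 6.41%, against 16.5% of all genes. Uqcrb, of complex III, was at -0.65, Cox11, an assembly factor that shares the symbol pattern, at -0.49, Cox7a1 at -0.46 and the ATP synthase gene Atp5md at 0.43. Cytosolic ribosomal proteins had a median of -0.02, with 34 of 62 below 0. Beyond the probe SD, 8 were lower (12.9%) and 2 higher (3.23%), both below the shares of all genes. Rpl21 was at 0.30, Rpl38 at -0.30, Rps15a at -0.29 and Rps14 at -0.29. Differences between these lists were not tested.

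**Figure D4:**
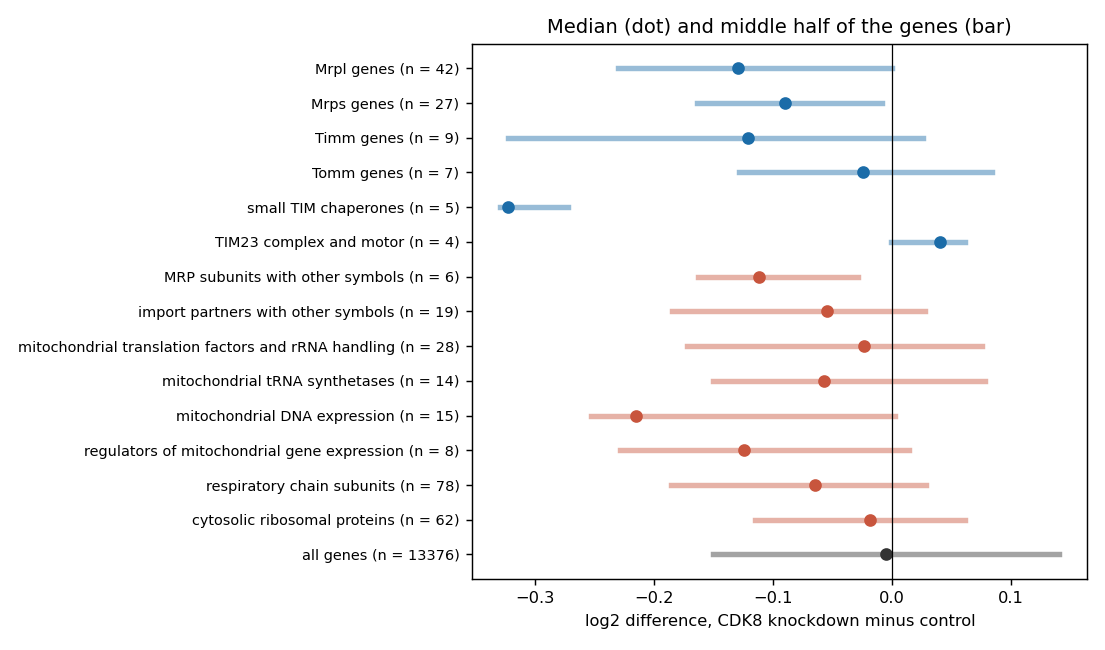
Median (dots) and middle 50% of genes (bars) of the log2 difference, CDK8 knockdown minus control (horizontal axis), for groups of the mitochondrial ribosome and import genes (blue), other lists (red) and all genes (black), with the number of genes detected on both arrays. The small TIM chaperones (-0.32) lie farthest left, the TIM23 complex (0.04) farthest right, and cytosolic ribosomal proteins (-0.02) next to all genes (-0.01).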

How the data were processed

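Intensity values of 2 bead arrays were used. Per the file headers, the authors' non-normalized table holds raw linear intensity per probe, exported with GSGX 1.9.0 without normalization or background subtraction; it has no detection p-values. The deposited value table of the series matrix, whose making is not given in the sources used here, holds linear intensity with 29.8% of values below 0 on each array, a median of 3.4 and sorted columns that differ by at most 0.1; it served as an alternative. Centring and scaling of that table stay unknown.

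Background was taken from the dim probes: its peak was 88.0 on the knockdown and 88.6 on the control array, and values below the peak, mirrored, gave its SD (2.50 and 2.56) and detection limits (93.7 and 94.5). This limit may be lenient. Intensities were corrected with normexp of limma 3.58.1 (R 4.3.3), 16 was added as an offset, and the 2 arrays were brought to 1 distribution by quantile normalization before taking log2. Adding the offset shrinks differences between dim intensities. The steps were tested on simulated arrays with 2-fold changes in 200 bright probes, which says nothing of smaller or dimmer differences. Sums, counts and figures used Python 3.11.15.

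Gene names follow the deposited symbols, updated through 29586 of 31508 probes' gene numbers in a RefSeq table of GRCm38.p6; 22 of the 156 probes of the described genes carry no number and were assigned by symbol. No build is given for the probes. Promoter windows come from RefSeq on GRCm38.p6, where 80 of the 92 genes had one.

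Members and gene lists were chosen with earlier results of these data known, and 1 array per group allows no p-value. Text names Cdk8, every detected Timm and Tomm gene, the 10 highest and 10 lowest Mrpl and Mrps genes, genes detected on 1 array, genes with discordant probes, and up to 4 genes of each other list; further names were chosen after their values were seen. With 2 arrays in all, their number sets the precision. Alternatives were 9 settings and 1 added after seeing the data.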

Additional observations from a re-analysis of the deposited data

How the results depend on the processing

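The median over the genes detected on both arrays lay between -0.13 and -0.09 under all 9 alternative settings and under 1 more, which kept only probes with a gene number and was chosen after seeing the data. Of the 23 genes lower beyond the probe SD, all 23 kept their direction in each alternative that measured them and 14 stayed past it in each. Of the 6 higher genes, 5 kept their direction and 2 stayed past it; Mrpl39 was 0 in the authors' processed values, where both of its values were at the floor of 16. The count of higher genes was 3 with an offset of 50, 2 without background correction, 3 with median scaling and 3 with probes of a mean log2 level of at least 7, against 6 as reported. The share of all genes that were higher fell too, from 16.5% as reported. It was 9.74% with an offset of 50, 7.12% without background correction and 14.1% with median scaling. Median scaling put 78.8% of these genes below 0 (56.4% of all genes). The Timm median was -0.032 without a filter on dim probes, against -0.12 as reported, and the Tomm median ranged from -0.03 to 0.02. Cdk8 was at -1.71 without background correction and at -0.69 with undetected probes averaged in. Of 361 values of single named genes under the alternatives, 11 moved beyond the probe SD. No gene past the probe SD as reported changed sign. Of the 41 genes followed singly, 6 within it did under at least 1 alternative: Mrpl49, Mrpl51, Timm17b, Tomm22, Tomm40l and Tomm7. Genes outside these 41 can turn as well, such as Mrpl43, at 0.04 as reported and -0.06 with its brightest probe. Among the values that moved, Mrpl20 was at -0.25 with undetected probes averaged in, Timm17b at 0.33 with its brightest probe, and Mrps14 and Timm22 at 0.14 and 0.10 without background correction and at 0, both arrays at the floor, in the authors' processed values. For the other lists and subsets, 34 medians under an alternative moved by more than 0.05 or changed sign. No paired analysis was possible because each group has 1 array. Values close to background rest on a background estimated without control probes.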
